A study of Mus musculus with 6 samples.

Results

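Replication-dependent histone genes were examined in mouse embryonic stem (ES) cells that lacked HP1α (Cbx5) and HP1β (Cbx1). Every row of the count table was taken whose gene has a clustered histone symbol (H2ac, H2bc, H3c or H4c with a number, or H1f1 to H1f5) or an older symbol of the Hist1h to Hist4h kind. This gave 67 of 24467 genes, 60 by their current symbol and 7 by their older symbol alone. The 67 genes comprise 6 of type H1, 17 of H2A, 19 of H2B, 12 of H3 and 13 of H4, and 54 of them lie on chromosome 13, 9 on chromosome 3, 3 on chromosome 11 and 1 on chromosome 6. A further 3 genes that match by name, H2ac14, H2ac19 and H2ac24, have no row of their own and were not analysed here. The tested cells are 2 double-knockout (DKO) clones, called clone 1 and clone 2, and the control is 1 clone labelled Hp1α/β F/F with the genotype WT, each with 2 RNA-seq libraries. F/F is the usual notation for floxed alleles, and the labels do not say how the alleles were deleted. All cells were grown in knockout serum replacement with LIF and inhibitors of GSK3 and MEK, and feeder cells are not mentioned.

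Replication-dependent histone genes supply the core and linker histones that package newly made DNA, and they are transcribed mainly in S phase. They typically lie in clusters and carry no introns, and their mRNAs typically end in a conserved stem-loop in place of a poly(A) tail. Some rows of the set differ, such as the pseudogenes H2bu1-ps and H2af-ps2. The annotated span of H2bc6 far exceeds its given length. The stem-loop is bound by SLBP, and the U7 snRNP cuts the transcript just downstream of it. Each type is encoded by many near-identical copies, so that one protein is made from many genes. HP1 proteins bind histone H3 methylated on lysine 9 and are known for their place in heterochromatin.

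The stem-loop is shown because it is typical of the mRNAs of these genes and the membership rule did not use it. The motif searched was GG, any 2 bases, CTTTT, any base, AG, any 2 bases and CC, on the transcript strand, with the first and last 6 bases able to pair. It was found in 42 of the 65 genes that had a GENCODE M21 transcript, and in 50 of all 55450 GENCODE genes (0.0902%). No match says only that these letters are not in the annotated transcript. The 42 genes used 6 sequences, given here as DNA with the stem in capitals and the loop in lower case.
H2ac18 and 23 others of types H1, H2A, H2B and H3: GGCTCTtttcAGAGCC
H2bc12 and 5 others of types H1, H2B and H3: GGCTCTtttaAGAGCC
H2ac20 alone: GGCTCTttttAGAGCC
H4f16 and 6 others of type H4: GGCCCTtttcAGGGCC
H4c14 and H4c9: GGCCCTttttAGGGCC
H4c2 and H4c11: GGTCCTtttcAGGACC
The stems of H4 genes were found in no gene of another type. The copy in H2ac18 lies at chr3:96246032-96246047 on the plus strand, that in H2ac20 at chr3:96220418-96220433 on the minus strand, that in H4f16 at chr6:136803998-136804013 on the minus strand and that in H4c2 at chr13:23757366-23757381 on the plus strand (GRCm38).

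Promoters of 60 of the genes were present in a RefSeq table (GRCm38.p6, from 250 bases before to 50 bases after the start), with a pair of starts for 1 gene, hence 61 windows. The letters CCAAT were found on either strand in 52 of 61 histone windows (85.2%), against 37.4% of all 32851 promoters, and TATAAA in 35 (57.4%) against 13.6%. The octamer ATTTGCAT, the letters bound by OCT proteins, was found in 14 (23.0%) against 1.74%. The octamer was present in 7 of 16 H2A and 7 of 17 H2B windows and in none of the H1, H3 or H4 windows. CCAAT was present in every H1, H2A, H2B and H3 window but in only 3 of 12 H4 windows. Among the genes called below, 8 had a window, of which 7 held CCAAT, 3 TATAAA and 3 the octamer. These shares describe letters, not binding. The windows of 1 called gene each of types H1, H2A and H2B are printed with these motifs in capitals, H1f1 at chr13:23763418-23763717 (plus strand), H2ac20 at chr3:96220831-96221130 (minus strand) and H2bc18 at chr3:96269450-96269749 (plus strand).
H1f1: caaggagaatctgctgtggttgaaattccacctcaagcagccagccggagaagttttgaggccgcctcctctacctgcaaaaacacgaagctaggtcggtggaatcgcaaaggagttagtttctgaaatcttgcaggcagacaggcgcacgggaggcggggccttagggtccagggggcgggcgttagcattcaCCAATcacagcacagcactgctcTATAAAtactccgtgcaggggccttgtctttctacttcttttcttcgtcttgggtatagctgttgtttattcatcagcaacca
H2ac20: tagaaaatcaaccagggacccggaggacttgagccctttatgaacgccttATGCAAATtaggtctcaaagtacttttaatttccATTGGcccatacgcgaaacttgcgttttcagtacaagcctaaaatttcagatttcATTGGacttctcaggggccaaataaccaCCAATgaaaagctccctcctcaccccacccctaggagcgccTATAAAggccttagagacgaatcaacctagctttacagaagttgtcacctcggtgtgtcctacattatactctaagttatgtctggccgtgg
H2bc18: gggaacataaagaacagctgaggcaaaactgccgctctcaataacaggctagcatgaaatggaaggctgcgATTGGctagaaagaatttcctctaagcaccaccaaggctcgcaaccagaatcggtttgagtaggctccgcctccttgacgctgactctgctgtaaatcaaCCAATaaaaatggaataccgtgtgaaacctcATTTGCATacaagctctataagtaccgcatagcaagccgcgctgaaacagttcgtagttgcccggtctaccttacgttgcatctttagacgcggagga
H1f1 held TATAAA 33 bases before its start and CCAAT 56 bases before it. H2ac20 held TATAAA 42 bases before its start, CCAAT at 3 places and the octamer, and H2bc18 held CCAAT at 2 places and the octamer 48 bases before its start.

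The libraries held 24628872 to 27876620 counted reads in DKO cells and 32327537 and 34641560 in control cells. Levels are given as CPM, the count of a gene relative to the library total, scaled by TMM. Cbx5 had 191 to 205 CPM in the DKO libraries against 809 and 813 CPM in the control libraries, and Cbx1 had 43.9 to 49.3 CPM against 223 and 227 CPM. The targeted genes were thus lower in all 4 DKO libraries, as labelled. Marker genes of ES cells summed to 5058 to 5380 CPM in DKO libraries and to 5054 and 5290 CPM in control libraries. Fibroblast markers summed to 10.5 to 12.1 CPM in DKO and to 13.9 and 17.8 CPM in control, primitive endoderm markers to 47.3 to 56.0 and to 59.1 and 59.3 CPM, and trophectoderm markers to 48.7 to 53.2 and to 40.7 and 47.3 CPM. All 67 histone genes passed the filter on low counts. Whether the 2 libraries of each clone are separate cultures is not stated, so p-values measure the spread between these libraries, which may be technical. In DKO against control that spread also includes the difference between the 2 DKO clones, and their 4 libraries are treated as 4 replicates. The control is a single clone, so genotype and clone cannot be told apart.

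Sequence sharing limits how far a value belongs to 1 gene. Of the 67 genes, 58 share at least one stretch of 50 bases with another gene of the set, 48 share at least 20% of such stretches, and the median gene shares 45.8%. How reads that match several genes were counted is not stated in the labels. The row of H2ac18 has a length of 1114 bases, the sum of H2ac18 (586 bases) and its copy H2ac19 (528 bases), so its counts may cover both. The given length also exceeds the GENCODE exons for H3c14 (2956 against 1825 bases), H2bc23 (2593 against 2015) and H2ac23 (962 against 480). Whether those rows cover other copies is not known. Of the 10 genes called below, H1f1, H2bc18, H4f16, H4c14 and H2aw share under 5% of their stretches with the set. For H2ac20, H3c14, H3c15 and H2ac18, 35 to 89% is shared. Genes outside the set were not compared in this way. Exons of 7 of the 67 genes overlap another gene on the same strand, and those of 19 a gene on the other strand. Among the called genes, same-strand overlap is present for H2ac18 and H3c14 (Gm20634), H2bc18 (Gm42743) and H2aw (Trim17). Exons of H2ac20, H2ac18, H2bc18 and H2aw overlap a gene on the other strand. H2af-ps2, an H2A pseudogene, has no GENCODE transcript to compare.

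In DKO cells 9 histone genes rose and 1 fell against control (edgeR quasi-likelihood F test, Benjamini-Hochberg adjusted p under 0.05 over 14771 tested genes), and 57 did not pass. Across all tested genes 5.06% rose and 3.62% fell. The median log2 change of the 67 genes was 0.20, against 0.00 for all tested genes. Most of the calls were on chromosome 3, where 6 of 9 genes rose and none fell, against 12.1% and 2.31% of the other 692 tested genes of that chromosome. On chromosome 13, 2 of 54 genes rose and none fell, against 3.05% and 4.58% of its other genes (13 higher and 1 lower at an unadjusted p under 0.05). The gene on chromosome 6, H4f16, rose, where 49.0% of the other tested genes there did and 1.27% fell. On chromosome 11, 1 of 3 genes, H2aw, fell and none rose, against 3.37% and 1.43% of its other genes. At an unadjusted p under 0.05 the counts over all 67 genes were 21 higher and 2 lower. In bulk RNA, more cells that make histone mRNA and more histone mRNA per cell cannot be told apart.

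The chromosome 3 cluster (chr3:96219885-96270192, GRCm38) includes the histone gene with the highest level per length in the set, by the lengths given in the file. That rank depends on those lengths. H2bc18, which encodes an H2B, had 1073 and 1223 CPM in clone 1 and 1060.0 and 1035 CPM in clone 2, against 743 and 861 CPM in control. All 4 DKO libraries lay above both control libraries. Its log2 change was 0.45 ± 0.089 (SE) with adjusted p = 0.0112 by edgeR. H2ac18, an H2A gene whose row may also cover its copy, had 686 CPM in each clone 1 library and 672 and 697 CPM in clone 2. Its control values were 489 and 473 CPM (log2 change 0.51 ± 0.060, adjusted p = 0.00114 by edgeR). The 4 DKO values lay close together and far from the control values. H3c14, an H3 gene, had 361 and 372 CPM in clone 1 and 363 and 380.0 CPM in clone 2, against 261 and 255 CPM in control (log2 change 0.52 ± 0.059, adjusted p = 0.00102 by edgeR). H2ac20, whose promoter and stem-loop are printed above, had 271 and 285 CPM in clone 1 and 278 and 256 CPM in clone 2, against 179 and 193 CPM in control (log2 change 0.55 ± 0.069, adjusted p = 0.00138 by edgeR). H2ac18, H3c14 and H2ac20 are the 3 calls of the set that held in every alternative run, 15 for each of the 3 contrasts with control, with an adjusted p of at most 0.0476.

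H3c15, a second H3 gene, had 35.8 and 45.8 CPM in clone 1 and 39.7 and 43.4 CPM in clone 2, against 30.3 and 29.6 CPM in control (log2 change 0.46 ± 0.11, adjusted p = 0.0244 by edgeR). H4c14, the H4 gene of the cluster, had 49.2 and 35.5 CPM in clone 1 and 33.8 and 45.9 CPM in clone 2, against 27.4 and 23.7 CPM in control (log2 change 0.69 ± 0.16, adjusted p = 0.0226 by edgeR). Both had every DKO value above every control value, with a wider spread among the DKO libraries than H2ac18 or H3c14. Both calls ended without control replicate 1 (adjusted p = 0.158 and 0.120) or control replicate 2 (adjusted p = 0.184 and 0.228), and that of H2bc18 ended without control replicate 1 (adjusted p = 0.158). H2ac21, an H2A gene, also lay above control in all 4 DKO libraries but did not pass, with 60.8 and 36.4 CPM in clone 1 and 36.3 and 35.6 CPM in clone 2, against 28.8 and 29.3 CPM in control (adjusted p = 0.138 by edgeR). The first clone 1 library stands apart there, and against control clone 1 alone passed (log2 change 0.74, adjusted p = 0.00901), while clone 2 alone gave 0.31 (adjusted p = 0.261). H3c13 had 21.3 to 31.5 CPM in DKO against 21.6 and 27.0 CPM in control. H2bc21, the lowest gene per length given in the file, had 1.16 to 2.73 CPM against 1.30 and 2.10 CPM. Those groups overlapped, and neither gene passed (adjusted p = 0.508 and 0.876 by edgeR). In all, 7 of the 9 chromosome 3 genes had groups that did not overlap, and 16 of the 67 genes lay above control in all DKO libraries and 2 below, against 16.9% of all tested genes in each direction.

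**Figure D1:**
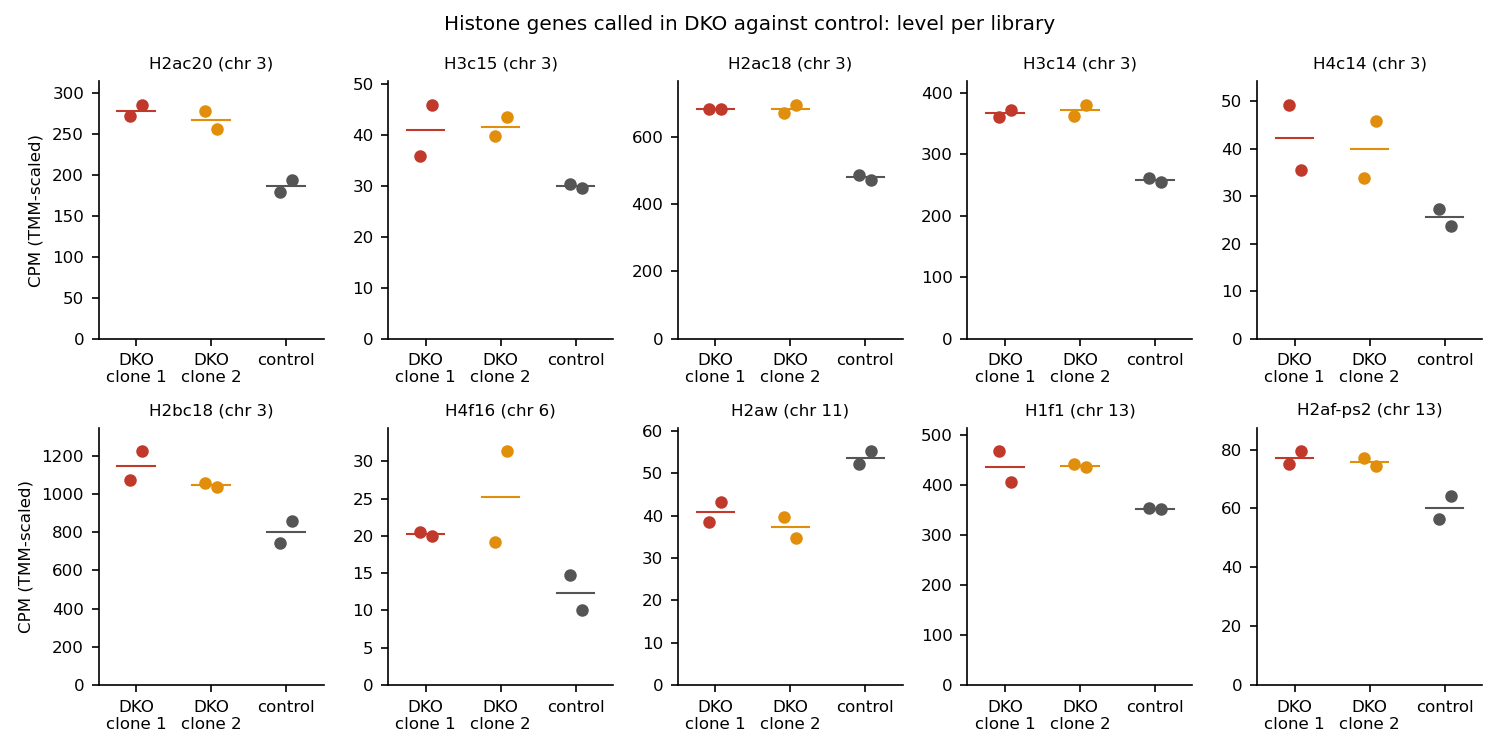
CPM (TMM-scaled) of the 10 histone genes called in DKO against control, 1 point per library, with clone 1, clone 2 and control from left to right and a line at the mean of 2 libraries. H2aw shows every DKO library below both control libraries (34.7 to 43.1 against 52.2 and 55.1 CPM), and the other 9 panels show every DKO library above them.

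The genes around the chromosome 3 cluster also had a median change above 0 in DKO cells, and it was smaller than that of the histone genes. Chromosome 3 as a whole had a median log2 change of 0.18 over 701 tested genes, 0.28 in clone 1 and 0.08 in clone 2, each against the shared control. Within 1 Mb of the cluster 56 other tested genes had a median of 0.22 for DKO, 0.34 for clone 1 and 0.11 for clone 2. Of these 56, 6 were called higher and none lower in DKO, 21 and none in clone 1, and 6 and 1 in clone 2. The 9 histone genes had medians of 0.51, 0.51 and 0.48 in the same contrasts. Clone 2 against clone 1 called 10 of the 56 flanking genes lower and none higher, and it called no histone gene of the cluster in either direction (2 lower and none higher at an unadjusted p under 0.05). After centring every chromosome on its median, H2ac20, H2ac18 and H3c14 kept their calls in DKO against control with smaller log2 changes (0.37, 0.33 and 0.33), and H2bc18, H3c15 and H4c14 lost theirs (log2 changes 0.27, 0.28 and 0.50, adjusted p = 0.121, 0.177 and 0.0990). In the single clones against control, the centred changes of H2ac20, H2ac18 and H3c14 were 0.30, 0.23 and 0.22 in clone 1 and 0.44, 0.43 and 0.44 in clone 2. The part that the change of the whole chromosome plays in the level of the cluster was not tested further.

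**Figure D2:**
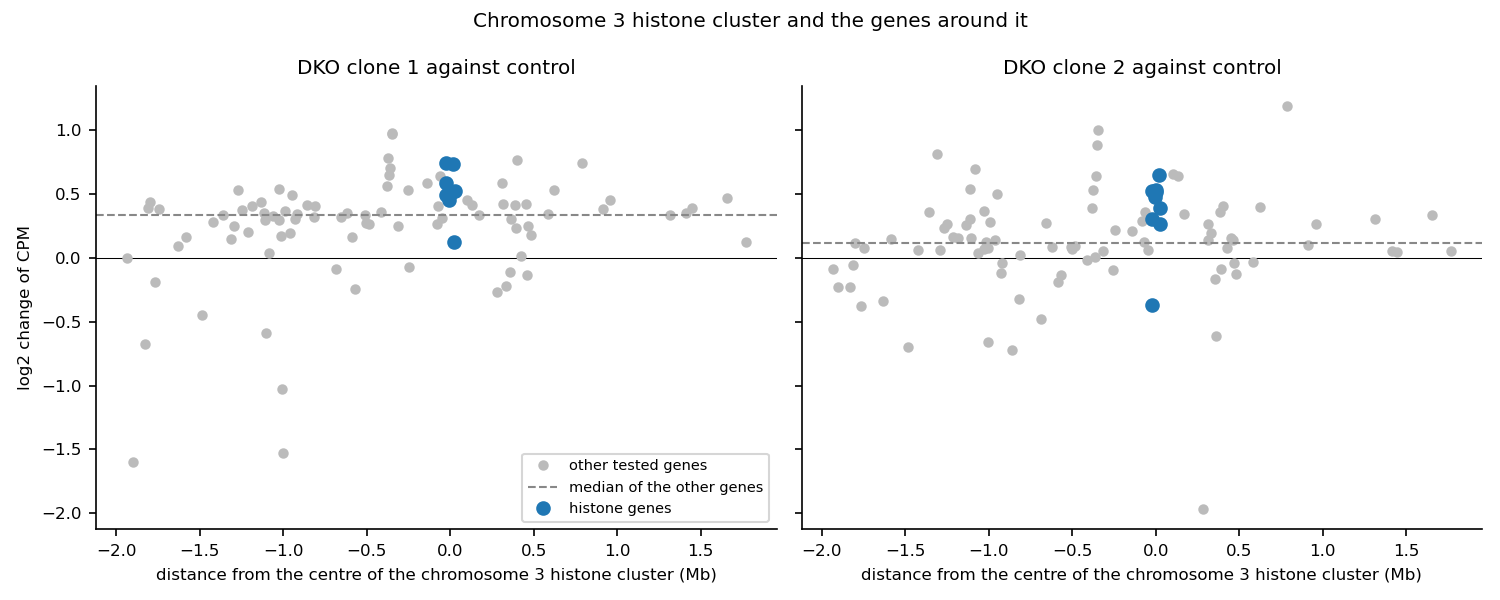
Log2 change of CPM (y axis) by distance from the centre of the chromosome 3 histone cluster in Mb (x axis), for clone 1 on the left and clone 2 on the right, each against control. Blue points are the 9 histone genes, grey points other tested genes within 2 Mb, and the dashed line is their median, 0.33 in clone 1 and 0.11 in clone 2.

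The genes outside the large clusters were few. H4f16, formerly Hist4h4, is the only gene of the set on chromosome 6. It had 20.6 and 20.01 CPM in clone 1 and 19.2 and 31.3 CPM in clone 2, against 14.7 and 10.1 CPM in control (log2 change 0.88 ± 0.22, adjusted p = 0.0325 by edgeR). The groups did not overlap, and the second clone 2 library stood apart from the other DKO libraries. Chromosome 6 had a median log2 change of 0.48. Centred on that median, H4f16 changed by 0.40 (adjusted p = 0.339), and the call ended. It also ended without either control library (adjusted p up to 0.294).

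H2aw, formerly Hist3h2a, on chromosome 11 was the only histone gene that fell in DKO against control. It had 38.6 and 43.1 CPM in clone 1 and 39.7 and 34.7 CPM in clone 2, against 52.2 and 55.1 CPM in control (log2 change -0.46 ± 0.094, adjusted p = 0.0135 by edgeR). Every DKO value was below both control values, but the call ended without control replicate 1 (adjusted p = 0.0955) or control replicate 2 (adjusted p = 0.153). Its row cannot be told apart from that of Trim17, a neighbouring gene on the same strand whose exons cover 708 of the 2146 bases of H2aw. Trim17 had 1066, 1202, 995 and 928 counts in the DKO libraries and 1778 and 1769 in control, and H2aw had 1074, 1200, 990 and 926 counts in the DKO libraries and 1792 and 1780 in control. The H2B genes beside it were near the lower limit of detection. H2bu2 had 0.602 to 0.675 CPM in DKO against 0.527 and 1.05 CPM in control, and the pseudogene H2bu1-ps 0.897 to 1.36 CPM against 1.19 and 1.27 CPM, and neither passed.

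The large cluster on chromosome 13 holds all 6 genes of the H1 group and most genes of every core type. H1f1, which encodes a linker histone, had the lowest adjusted p there, with 467 and 405 CPM in clone 1 and 441 and 435 CPM in clone 2, against 353 and 351 CPM in control (log2 change 0.31 ± 0.069, adjusted p = 0.0203 by edgeR). All DKO libraries lay above control. H2af-ps2, a transcribed H2A pseudogene that lies apart from the cluster near 51 Mb, had 75.2 and 79.4 CPM in clone 1 and 77.04 and 74.5 CPM in clone 2, against 56.4 and 64.3 CPM in control (log2 change 0.34 ± 0.079, adjusted p = 0.0231 by edgeR). Both calls ended without either control library. H1f5, a second abundant linker histone gene, had 223 to 251 CPM in DKO against 253 and 253 CPM in control (log2 change -0.08 ± 0.066, adjusted p = 0.516). The other H1 genes of chromosome 13 did not pass either, H1f2 with 186 to 389 CPM in DKO against 231 and 241 CPM in control, H1f3 with 193 to 306 against 280.4 and 317 CPM, H1f4 with 82.3 to 127 against 95.8 and 98.6 CPM, and the testis form H1f6 with 3.71 to 6.39 against 3.59 and 4.31 CPM.

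Medians by type over chromosome 13 were 0.21 for H1, 0.14 for H2A, 0.10 for H2B, 0.30 for H3 and 0.37 for H4 in DKO against control. No H3, H4 or H2B gene of that chromosome passed by edgeR, where 9 of these 35 were higher at an unadjusted p under 0.05 and 1 was lower. Changes in log2 ranged up to 0.68 for H4c17, which had 34.7 to 66.4 CPM in DKO against 23.2 and 40.2 CPM in control (adjusted p = 0.152), and down to -0.66 for H2bc8 (adjusted p = 0.173). The 53 genes in the cluster had a median of 0.18, and the 31 other tested genes within 1 Mb of it had a median of 0.03.

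Each clone was then set against the control by itself, so the 2 contrasts share the control libraries. In clone 1, 11 histone genes rose and 1 fell, where 8.79% and 6.47% of all tested genes did, and the median was 0.06. In clone 2, 27 rose and 1 fell, where 7.89% and 7.08% of all tested genes did, and the median was 0.31. On chromosome 13, 3 of 54 genes rose in clone 1 and 20 of 54 in clone 2, and on chromosome 3 it was 7 and 6 of 9. Of the 56 other tested genes within 1 Mb of the chromosome 3 cluster, 21 rose in clone 1 and 6 in clone 2. By type, the calls in clone 2 were 2 of 6 H1, 8 of 17 H2A, 7 of 19 H2B, 6 of 12 H3 and 4 of 13 H4 genes higher, and in clone 1 they were 1, 4, 1, 2 and 3. The 10 genes called in DKO against control were also called in each clone contrast, in the same direction. All these contrasts are drawn from the same libraries, so this is not an independent repeat. Another 18 were called in clone 2 alone and 2, H2ac21 and H4c1, in clone 1 alone.

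**Figure D3:**
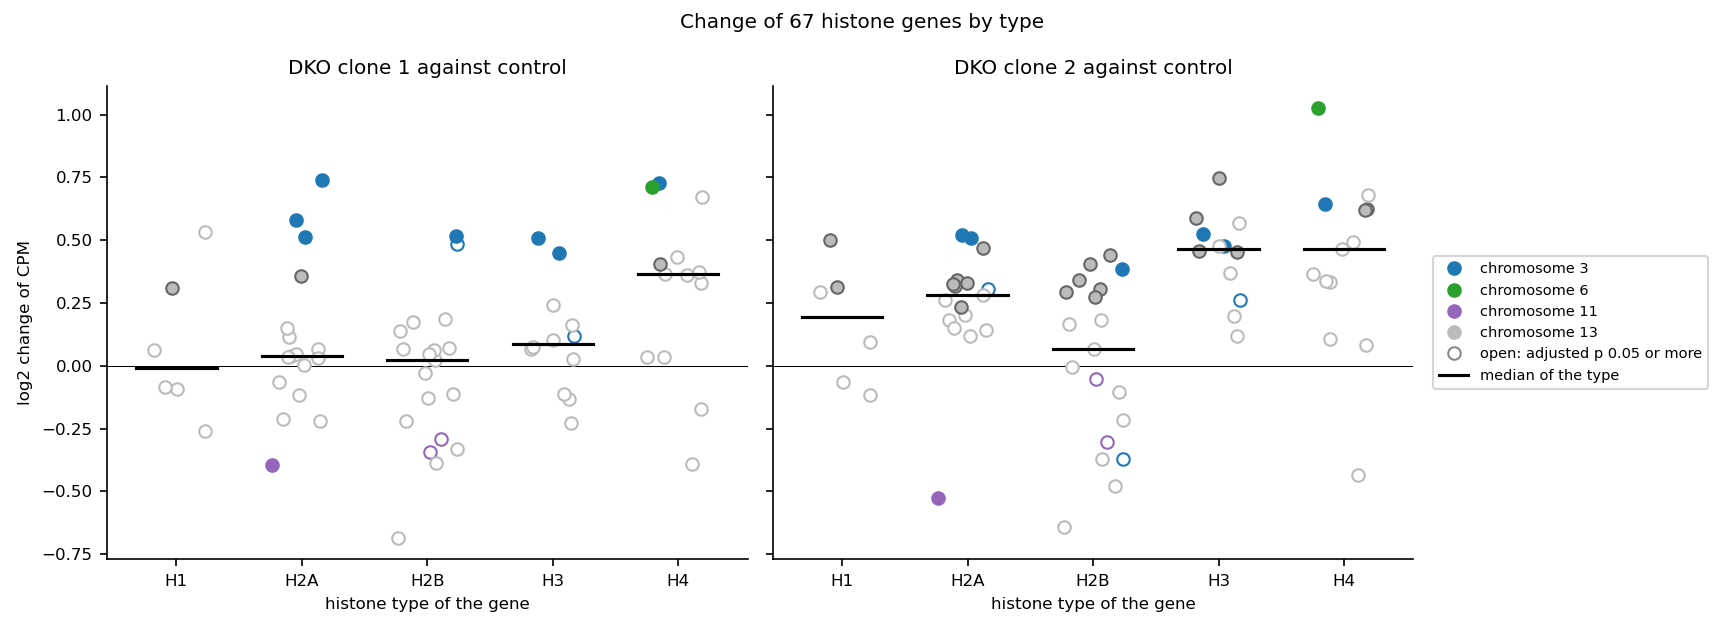
Log2 change of CPM (y axis) of each of the 67 histone genes by type (x axis), for clone 1 on the left and clone 2 on the right, each against control. Filled points passed at adjusted p under 0.05, colours give the chromosome, and the black line is the median of the type, which for H3 is 0.09 in clone 1 and 0.47 in clone 2.

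The direct test of clone 2 against clone 1 called 5 histone genes higher and none lower, where 2.53% and 3.77% of all tested genes were called. At an unadjusted p under 0.05 the histone counts were 21 and 3. All 5 lie on chromosome 13. H1f2, a linker histone gene, had 278 and 389 CPM in clone 2 against 186 and 259 CPM in clone 1 (log2 difference 0.58 ± 0.15), with 241 and 231 CPM in control. H3c7 had 30.9 and 39.2 CPM in clone 2 against 23.4 and 25.5 CPM in clone 1 (0.52 ± 0.13), with 25.4 and 21.2 CPM in control. H3c4 had 31.8 and 35.6 CPM in clone 2 against 21.6 and 26.7 CPM in clone 1 (0.48 ± 0.13), with 28.8 and 23.4 CPM in control. H2bc6, whose exons overlap those of H1f4, had 113 and 131 CPM in clone 2 against 80.8 and 100.1 CPM in clone 1 (0.43 ± 0.11). H2ac22 had 71.2 and 70.9 CPM in clone 2 against 56.3 and 59.1 CPM in clone 1 (0.30 ± 0.076). In each the lowest clone 2 value exceeded the highest clone 1 value, but without clone 1 replicate 1 or without clone 2 replicate 2 none of the 5 was called.

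Single libraries stood apart in these values. Of the 54 chromosome 13 genes, 25 had their lowest value of the 6 libraries in clone 1 replicate 1 and 22 in control replicate 2, and 32 had their highest value in clone 2 replicate 2. Without clone 2 replicate 2, 1 of the 20 chromosome 13 calls of clone 2 against control was kept, without control replicate 2 it was 7 and without control replicate 1 it was 8. On chromosome 3 the same steps kept 4, 4 and 5 of 6 calls.

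The spread between the 2 libraries of a group was wider for histone genes than for tested genes as a whole. The median absolute log2 difference between the libraries was 0.25 in clone 1, 0.16 in clone 2 and 0.21 in control for the 67 genes, against 0.12, 0.11 and 0.12 over 13184 genes. Differences above 0.5 were found in 26.9%, 10.4% and 19.4% of histone genes, against 6.96%, 7.10% and 6.37% of the genes as a whole. Within a pair of libraries the H3 genes mostly shared a direction, and so did the H4 genes, but in clone 1 these directions were opposite. The H2A and H2B genes were less uniform in clone 2 and control. In control, replicate 2 was lower than replicate 1 for 12 of 13 H4 and 11 of 12 H3 genes. In clone 1, replicate 2 was lower for 11 of 13 H4 genes and higher for 12 of 12 H3 genes, and in clone 2 it was higher for 12 of 13 H4 and 12 of 12 H3 genes. For H2A it was higher in 15 of 17 genes in clone 1, 9 in clone 2 and 9 in control, and for H2B in 16 of 19, 11 and 12. No test of a difference between types was run.

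H4c4 went against the median H4 gene in all 3 groups. It is the H4 gene with the highest level per length, with 687 and 1376 CPM in clone 1 and 1153 and 850.2 CPM in clone 2, against 1034 and 1673 CPM in control (log2 change -0.41 ± 0.25, adjusted p = 0.357 by edgeR). Its log2 ratio of replicate 2 over replicate 1 was 1.00 in clone 1, -0.44 in clone 2 and 0.69 in control, against medians over the H4 genes of -0.25, 0.45 and -0.31. H2bc8, H2bc3, H2bc14 and H2bc15 were among the genes with the same signs as H4c4 in all 3 groups. H2bc8, an H2B gene, had 127 and 217 CPM in clone 1 and 201 and 154 CPM in clone 2, against 171 and 382 CPM in control. Its values in the control pair lay further apart than the group means, 175 CPM in DKO and 276 CPM in control.

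**Figure D4:**
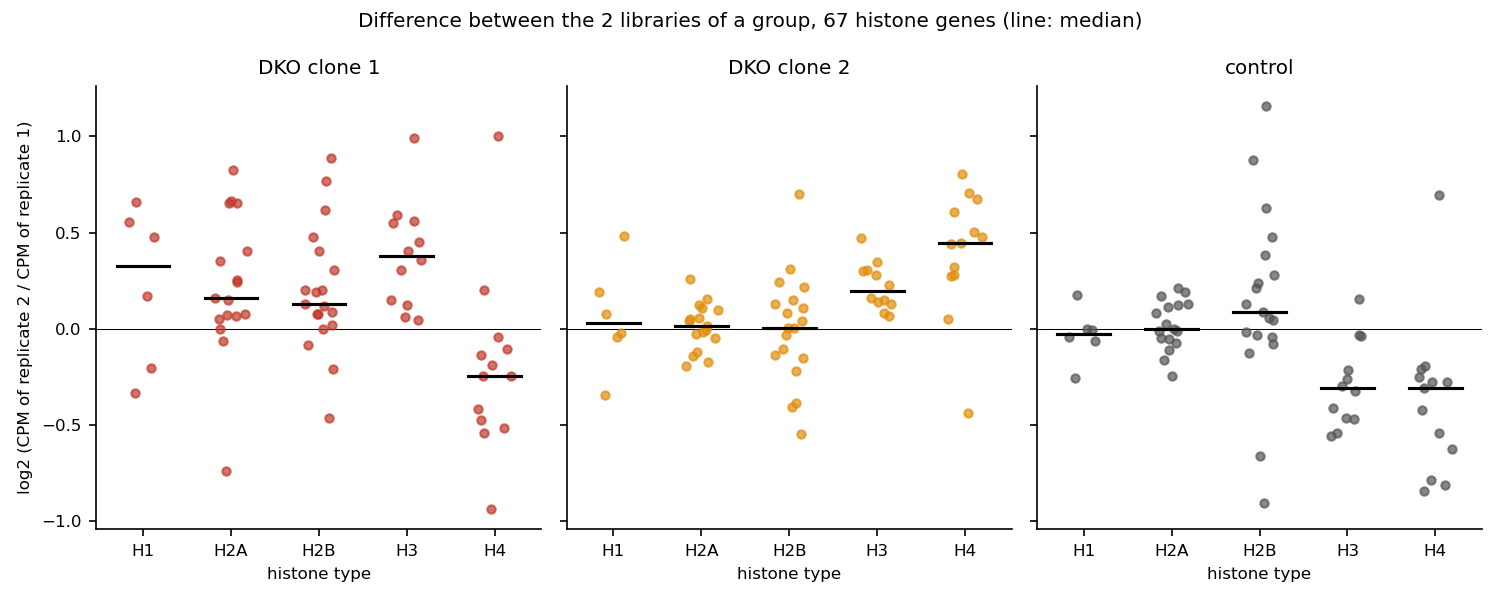
Log2 ratio of replicate 2 over replicate 1 (y axis) for each of the 67 histone genes by type (x axis), in clone 1, clone 2 and control from left to right, with a line at the median of the type. H4 genes lie mostly below 0 in clone 1 and control and above 0 in clone 2, with H4c4 as the single point on the other side in clone 2 and control.

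The share of all counted reads that went to histone genes was 0.781 and 0.961% in clone 1 and 0.941 and 0.930% in clone 2, against 0.776 and 0.890% in control. DKO libraries averaged 0.903 ± 0.083% and control libraries 0.833 ± 0.081% (SD, n = 4 and 2), a ratio of 1.08, and the groups overlapped. For the 9 genes of chromosome 3 the share was 0.256 and 0.272% in clone 1 and 0.254 and 0.252% in clone 2, against 0.177 and 0.189% in control, a ratio of 1.41 with no overlap. For the 54 genes of chromosome 13 the ratio was 0.992, and leaving out H4c4, H2bc8, H2bc3 and H2bc15, chosen after their values were seen, gave 1.12. By type the ratio was 1.08 for H1, 1.20 for H2A, 1.06 for H2B, 1.29 for H3 and 0.917 for H4. The sums of the core types include genes of chromosome 3. Among these, H2bc18 had means of 1100 CPM in DKO and 802 CPM in control, and H2ac18 685 and 481 CPM. Ratios by type without chromosome 3 were not computed, so these ratios do not describe each type as a whole. The H4 ratio and the H4 median point in opposite directions, since H4c4 alone took 0.102% of reads in DKO and 0.135% in control and the other 12 H4 genes 0.0716% and 0.0544% (ratio 1.32).

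**Figure D5:**
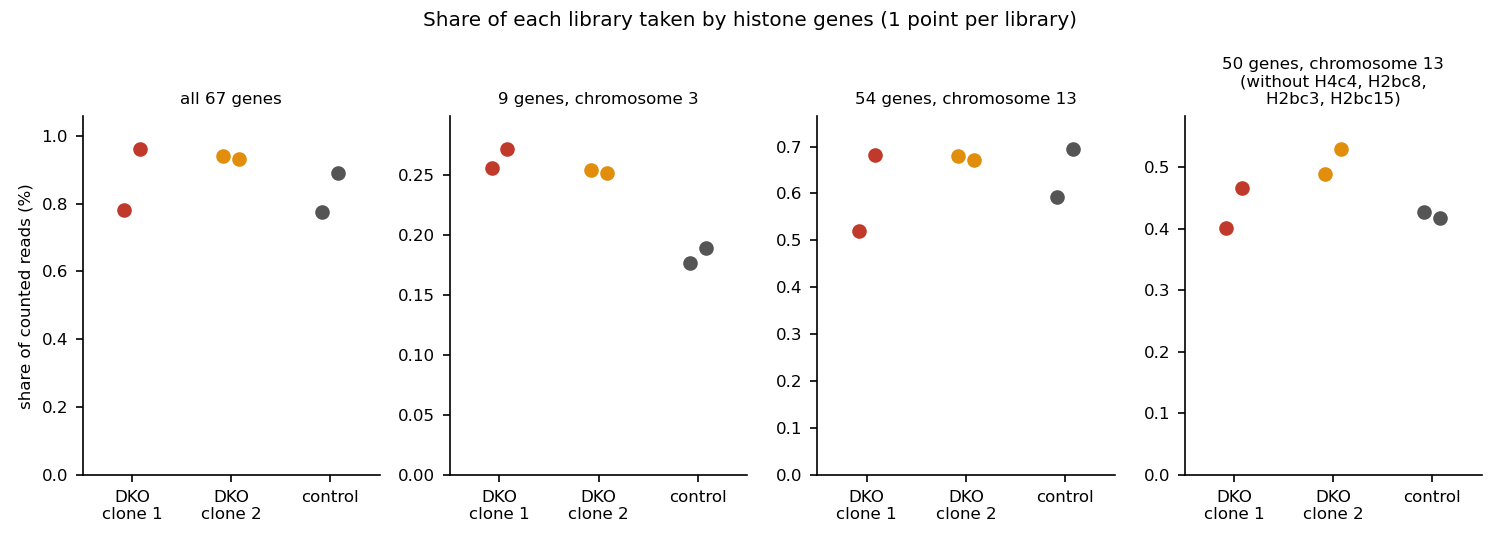
Share of counted reads in percent (y axis) for 4 sets of histone genes, 1 point per library, with clone 1, clone 2 and control from left to right. The 9 genes of chromosome 3 take 0.252 to 0.272% in DKO libraries and 0.177 and 0.189% in control libraries, while the other sets overlap between groups.

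Levels between genes are compared per length, as mean CPM per kb of the length given in the file over the 6 libraries. H2bc18 stood first with 2620 CPM per kb, then H4c4 with 992. H2bc15 (574), H2bc3 (566), H2ac18 (554) and H1f1 (551) followed close together, then H2ac20 with 469. H2bc8 (338), H2ac13 (336), H2ac23 (330) and H1f5 (328) came next, with little between them. The highest H3 gene was H3c14 with 112, and H2bc21 was lowest with 0.687. Many of the given lengths cover the coding part alone (381 bases for H2bc18 and H2bc15), and others are longer (1138 bases for H4c4). For H3c14 the given 2956 bases exceed the 1825 bases of its GENCODE exons. An order between genes thus depends on the annotation as well as on the reads.

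Many H2A and H2B genes lie head to head with a shared region between their starts, and 11 such pairs had starts within 164 to 281 bases of each other. In DKO against control 5 pairs had both changes above 0 and 6 had opposite signs, and the median difference between partners was 0.17 on the log2 scale without regard to sign. H2ac20 was the single called gene in a pair, and its partner H2bc21 had a log2 change of 0.13 at 1.85 CPM in DKO and 1.70 CPM in control. The widest gap was that between H2ac8 (0.14) and H2bc8 (-0.66), and neither gene passed.

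Genes that act on histone mRNA or on histones were taken from lists of named genes. Of 23 tested genes for histone mRNA transcription and processing, 1 rose and none fell, with a median of 0.00. Slbp, the stem-loop binding protein, had 189 to 198 CPM in DKO against 182 and 190 CPM in control, and Npat, the coactivator of histone transcription at histone locus bodies, had 110 to 116 CPM against 119 and 121 CPM. Neither passed (adjusted p = 0.670 and 0.498 by edgeR). The gene that rose was Snrpg, a core Sm protein gene on chromosome 6, with 31.8 to 39.2 CPM in DKO against 20.5 and 22.8 CPM in control (log2 change 0.75, adjusted p = 0.00267), and 0.27 with chromosomes centred (adjusted p = 0.198). It also lost its call without control replicate 1 (adjusted p = 0.0643). Of 30 histone chaperone genes, 2 rose and 1 fell (median 0.01). Ubn2 of the HIRA complex, on chromosome 6, changed by 0.48 (adjusted p = 0.00327) and by -0.01 once centred. Vps72, which binds H2A.Z, on chromosome 3, changed by 0.35 (adjusted p = 0.0402), and Npm1, nucleophosmin, by -0.35 (adjusted p = 0.0313). With chromosomes centred Vps72 changed by 0.16 (adjusted p = 0.346) and Npm1 by -0.30 (adjusted p = 0.0811), so that neither passed, and both calls also ended without either control library.

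Replication-independent variants were treated apart. Of 11 tested variant genes 1 rose and 1 fell (median 0.16). Cenpa, the centromeric H3 variant, had 65.5 and 68.1 CPM in clone 1 and 71.3 and 73.4 CPM in clone 2, against 54.6 and 50.9 CPM in control (log2 change 0.40 ± 0.079, adjusted p = 0.0115 by edgeR). Macroh2a2 had 35.0 and 37.6 CPM in clone 1 and 40.1 and 32.2 CPM in clone 2, against 45.8 and 59.4 CPM in control (log2 change -0.54 ± 0.12, adjusted p = 0.0191 by edgeR). Both had groups that did not overlap. The call of Cenpa ended without either control library (adjusted p = 0.0722 and 0.143), and that of Macroh2a2 without control replicate 2 (adjusted p = 0.257). Of 25 S-phase genes 1 rose and none fell (median 0.06). Of 16 genes of G2 and mitosis 1 rose and none fell (median -0.04). Summed levels of the S-phase genes were 4114 to 4372 CPM in DKO and 3996 and 4010 CPM in control, and those of the processing genes 2417 to 2508 CPM in DKO and 2456 and 2465 CPM in control. Of the other marker lists, 1 of 10 ES cell genes rose and 1 fell, 1 of 6 fibroblast genes rose and 2 fell, none of 8 primitive endoderm genes rose and 1 fell, and 1 of 6 trophectoderm genes rose and 1 fell. The part of these lists in the histone values was not tested.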

How the data were processed

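RNA from 6 libraries was sequenced by the authors after RNeasy extraction, Turbo DNase and ScriptSeq v2 library preparation, per the labels. Whether poly(A) RNA was selected or rRNA removed is not described here, and it bears on the counts of mRNAs without a poly(A) tail. Reads were aligned with STAR 2.5.0a to mm10 (GRCm38), per the submitters' processing notes. The authors deposited raw counts for each Entrez gene, and a gene length. The counter, annotation release, strand and treatment of multiply matching reads are not given in the sources used. Of 24467 rows, 24437 matched the reference gene table.

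Counts were filtered with filterByExpr (14771 genes), scaled by TMM (factors 0.992 to 1.01) and tested, two-sided, with the edgeR 4.0.16 quasi-likelihood F test in R 4.3.3, adjusted by Benjamini and Hochberg at 0.05. DKO against control used genotype alone (4 against 2 libraries, 4 residual degrees of freedom), and clone contrasts used 3 groups (3 residual degrees of freedom). The SE of a log2 change was taken from the F statistic. CPM was computed here from the counts. The genes and lists were chosen with earlier results of these data known. Named genes were those called in any contrast, the 2 highest per length in each type, all on chromosomes 11 and 6, and up to 4 of each list by adjusted p; others were named after their values were seen. The values of 1 gene of the S-phase list are not reported here. Replicate numbers did not pair the samples. Alternatives were RLE and library-size scaling, other filters, DESeq2 1.42.0, limma-voom (limma 3.58.1), a replicate block, centred chromosomes and each library left out. The fits were tested on simulated data.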

Additional observations from a re-analysis of the deposited data

Results flagged for a closer look

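Values were set apart where the gap of the highest or lowest of the 4 DKO libraries to its neighbour took a larger part of their range than Dixon's critical value. Chance gives this in about 1 in 20 groups of like samples, whereas these libraries come from 2 clones. The number of values screened is not given here, so the flags cannot be weighed against that rate. The share of reads of all 67 histone genes had a ratio of 0.830, with clone 1 replicate 1 at 0.781% and the others at 0.930 to 0.961%. The same library was lowest for the H2A genes (ratio 0.835) and for chromosome 13 (ratio 0.937), whose reads are part of that same sum. Clone 2 replicate 2 was highest for H4f16, the single gene of the set on chromosome 6, with a ratio of 0.903 for its share of reads and 0.887 for its CPM. Clone 1 replicate 1 was highest for H2ac21, at 60.8 CPM against 35.6 to 36.4 CPM in the other DKO libraries (ratio 0.968).

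The clones differed in 5 genes by the edgeR test of clone 2 against clone 1, which compares the clones directly and tests neither against control. The log2 differences were 0.584 for H1f2, 0.521 for H3c7, 0.478 for H3c4, 0.432 for H2bc6 and 0.302 for H2ac22. Clone 1 replicate 1 was the lowest of the 6 libraries for 25 of 54 chromosome 13 genes, and without it none of the 5 was called.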

How the results depend on the processing

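H2ac20, H2ac18 and H3c14 kept direction and call in all 15 alternatives in each contrast with control. In DKO against control, 9 genes were higher and 1 lower. DESeq2 gave 14 higher and centred chromosomes 5. Leaving out each library gave 3 to 15 higher (3 without control replicate 1, 4 without control replicate 2, 15 without clone 1 replicate 1) and 0 to 1 lower. Leaving out control replicate 2 and clone 1 replicate 1 together, an alternative chosen after seeing the data, gave 3 and 0. In clone 1, 11 were higher and 1 lower. No filter on low counts gave 18 and 7, centring 7 higher, leaving out each library 5 to 13 and 0 to 10, and leaving out both 7 and 0. In clone 2, 27 were higher and 1 lower. No filter gave 4 lower, leaving out each library 5 to 32 and 1 to 3, and leaving out both 16 higher. Between clones, 5 were higher and 0 lower. No filter gave 19 and 1, centring 1 higher, leaving out each library 0 to 16 and 0 to 1, and leaving out both 0 higher. For the counts by library and for both libraries the cause was not tested. The share ratio of 1.08 was 1.01 to 1.16 with each library left out. Among genes of the other lists, centring turned Ubn2 to -0.006 and Nanog to -0.151.

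Same-numbered libraries did not deviate together over all tested genes (r = -0.083 to 0.028). Over the 67 histone genes r was 0.452 between clone 1 and control, -0.648 between clone 2 and control and -0.422 between the clones, so same-numbered libraries did not deviate one common way. A replicate block gave 8 higher and 1 lower in DKO, 12 and 1 in clone 1, 30 and 1 in clone 2, and 6 and 0 between the clones. Where a library is left out of a group of 2, the lone library is assumed to vary like the others. With RLE scaling, library size alone, a mean of at least 1 CPM and limma-voom, the DKO calls were all kept. For H2bu2, H2bu1-ps and H2bc21, at 0.527 to 2.73 CPM, the SE of the log2 change was 0.29 to 0.38, and a change of the size seen on chromosome 3 was not detectable at this depth.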
